A study of Rattus norvegicus with 6 samples.

Results

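The 10 genes described here encode proteins that coat, enlarge or protect the lipid droplet in liver cells, or that make the triglyceride inside it. They were taken by gene name from a table of 30957 rat genes. The coat and droplet proteins are Plin2, Plin4, Plin5, Cideb, Cidec, Hsd17b13, G0s2 and Fitm2, and the enzymes are Dgat1 and Dgat2. RNA was sequenced from the livers of 6 Sprague Dawley rats that had all received faecal microbiota transplantation (FMT). The 3 t-PBS rats received microbiota from donors treated with phosphate buffered saline (PBS), and the 3 t-DHEA rats received it from donors treated with dehydroepiandrosterone (DHEA), an androgen precursor used to induce a polycystic ovary-like state. Per the study's methods, the recipients of both groups were young females whose own gut bacteria had first been depleted by an antibiotic cocktail. The t-PBS livers are therefore not untreated livers, and no recipient was injected with DHEA. The study did not detect DHEA in donor faeces. It found more DHEA sulfate in those of DHEA-treated donors, which passed to recipients with the microbiota at levels it called very low. The comparison asks whether the microbiota of DHEA-treated donors was accompanied by other transcript levels in the recipient liver.

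Hepatocytes store surplus fatty acids as triglyceride in lipid droplets, which bud from the endoplasmic reticulum. The 2 diacylglycerol acyltransferases, Dgat1 and Dgat2, are unrelated proteins that catalyse the same last step of triglyceride synthesis. Perilipins cover the droplet surface and limit the access of lipases, CIDE proteins move lipid between droplets in contact, and other proteins on the surface restrain or assist lipolysis.

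Total counts on genes ran from 13031722 to 14316886 in t-PBS livers and from 12348511 to 13529414 in t-DHEA livers, so the depths of the groups overlapped. Levels within a gene are given as CPM, counts per 1000000 after division by the liver's total count and TMM factor. A count of 0 left room for 3 counts, which were worth 0.2101 to 0.2475 CPM in these livers, and that limit covers counting error only. Summed over 9 rows with hepatocyte marker names, the levels were 165300 to 180900 CPM in t-PBS and 174400 to 192900 CPM in t-DHEA livers, and the tissue was therefore liver as labelled. Of the 6 adipocyte markers, 4 (Adipoq, Lep, Plin1 and Retn) were listed at 0 in every liver, which need not mean absence, since the table also lists a widely used gene such as Pnpla2 at 0. The summed level of the adipocyte list was 12.5 to 13.1 CPM in t-PBS and 9.87 to 14.4 CPM in t-DHEA livers. In bulk tissue, fewer cells of a type and less RNA per cell cannot be told apart.

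Of the 10 genes, 9 passed the filter on low counts and were tested, and 2 of these met the criteria of the study, which are a p below 0.05 without adjustment and a change of over 1.2-fold. Plin2 was lower and Dgat2 was higher in t-DHEA livers. Over the whole table, 604 of 12210 genes tested met the criteria (4.95%), of which 364 were lower (2.98%) and 240 higher (1.97%) in t-DHEA. On FPKM values, limma gave 448 lower and 165 higher with a pseudocount of 0.1, and 390 lower and 147 higher with a pseudocount of 1. After adjustment over the table, edgeR's quasi-likelihood test left no gene below 0.05 (0%), although 634 had an unadjusted p below 0.05, so both differences rest on unadjusted p-values. DESeq2 gave 20 genes and edgeR's likelihood-ratio test 28 genes below that adjusted threshold, and neither count held any of the 10 genes. The groups did not overlap for Plin2, Dgat2 and Cidec, against 1232 of all genes tested (10.1%). Of the 9 genes, 4 were higher and 5 lower, with a median log2 fold change of -0.036, against 0.0013 over all genes tested.

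**Figure D1:**
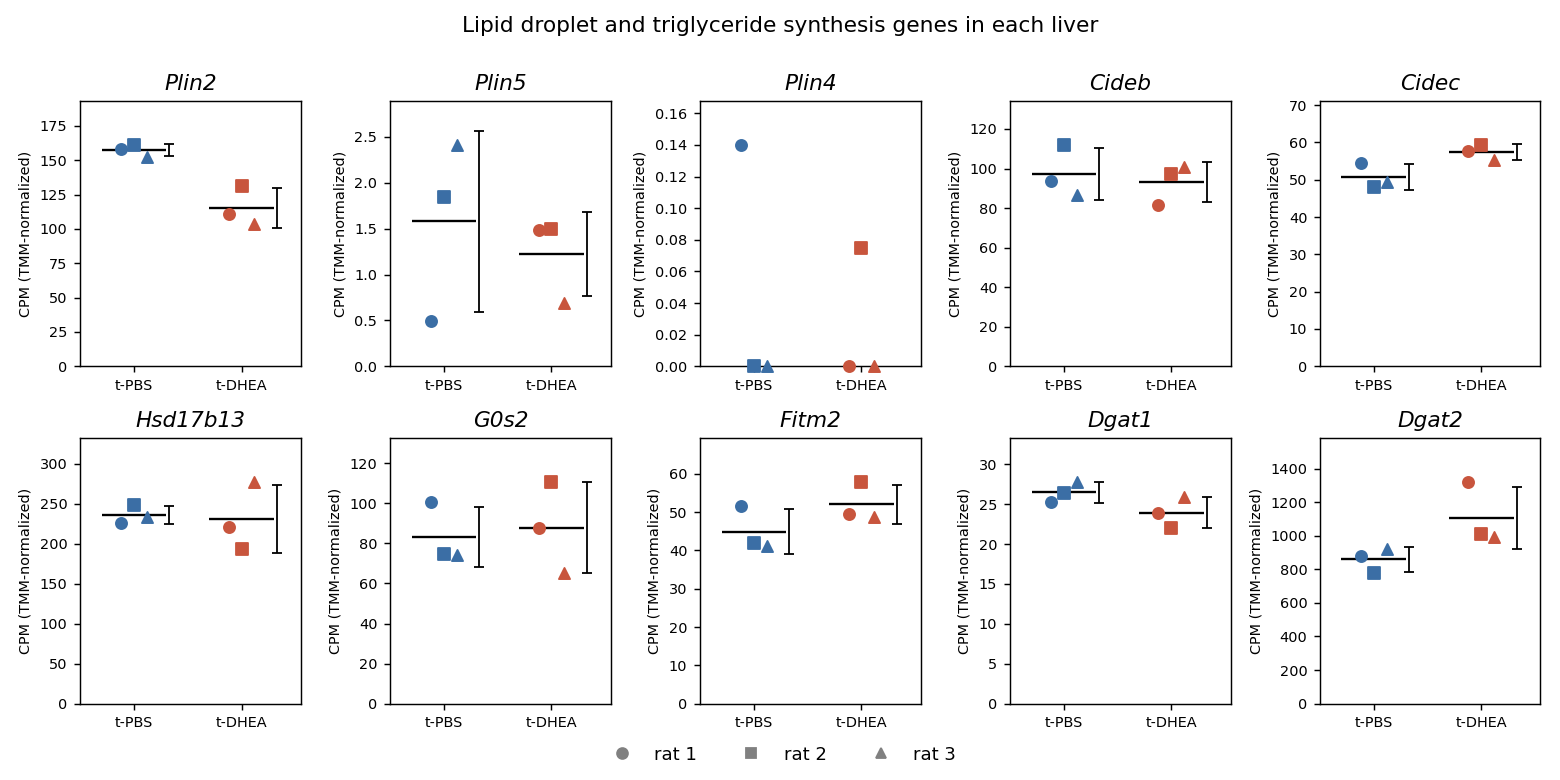
CPM of each of the 10 genes in each liver, 1 panel per gene with its own axis from 0; circles, squares and triangles are rats 1, 2 and 3 of a group, horizontal lines are group means and bars are ± 1 SD (n = 3), left out for Plin4, which was not tested. The t-DHEA points lie below all t-PBS points for Plin2 and above them for Cidec and Dgat2, and the groups overlap in the other 7 panels, with 4 livers at 0 for Plin4.

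Plin2 encodes the main perilipin of the hepatocyte, a protein that is degraded when it is not bound to a droplet. By staining, the study found larger and more numerous lipid droplets in t-DHEA than in t-PBS livers. Whether the Plin2 transcript followed its protein or the droplet content was not tested. In Rnor_6.0 the gene (ENSRNOG00000007060) spans chr5:104984414-105010857. Its level was 158.0, 161.3 and 152.7 CPM in t-PBS rats 1, 2 and 3. In t-DHEA rats 1, 2 and 3 it was 111.1, 131.2 and 103.4 CPM. The t-PBS livers lay close together, and every t-DHEA liver was below the lowest of them. The means were 157.3 ± 4.35 and 115.3 ± 14.3 CPM (SD, n = 3 each). Plin2 was thus 26.7% lower in t-DHEA, a log2 fold change of -0.45 (SE 0.11, 95% interval -0.69 to -0.21), with an unadjusted p of 0.00249 and an adjusted p of 0.796 (edgeR, quasi-likelihood). By unadjusted p it ranked 37 of 12210 genes. The adjusted p was 0.152 in DESeq2 and 0.197 in edgeR's likelihood-ratio test. Plin2 met the criteria in all 14 alternative fits at the fold-change of 1.2, including the 6 that each left out 1 liver, in which its log2 fold change was lowest without t-DHEA rat 2 (-0.55) and highest without t-DHEA rat 3 (-0.37).

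RefSeq promoter windows of 300 bases (250 before and 50 after a gene's start, GRCr8) were matched for 8 of the 10 genes, all but Dgat1 and Dgat2. The windows of the perilipins Plin2 and Plin5 are shown, since Plin2 differed between the groups and Plin5 is the other perilipin of the 10 that was tested. The Plin2 window lies on the minus strand at chr5:106228969-106229268 and the Plin5 window on the minus strand at chr9:1033235-1033534, both in GRCr8. Capitals mark an E-box (CACGTG), which starts 67 bases before the Plin2 start, and a nuclear receptor core site (AGGTCA), which starts 157 bases before the Plin5 start.
Plin2: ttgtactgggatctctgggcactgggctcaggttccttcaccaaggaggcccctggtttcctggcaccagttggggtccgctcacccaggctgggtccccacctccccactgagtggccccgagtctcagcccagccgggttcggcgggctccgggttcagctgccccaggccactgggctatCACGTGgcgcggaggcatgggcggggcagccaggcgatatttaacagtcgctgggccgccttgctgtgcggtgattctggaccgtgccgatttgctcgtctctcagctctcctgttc
Plin5: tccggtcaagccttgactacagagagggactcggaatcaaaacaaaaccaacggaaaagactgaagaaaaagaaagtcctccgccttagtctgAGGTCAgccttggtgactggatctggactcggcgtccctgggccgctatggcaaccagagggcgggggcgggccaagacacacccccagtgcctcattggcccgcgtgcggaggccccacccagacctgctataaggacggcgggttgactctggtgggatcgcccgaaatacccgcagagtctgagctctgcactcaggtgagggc
An E-box is bound by proteins of the basic helix-loop-helix family, among them the clock proteins, and the core site is the repeat unit that PPAR and other nuclear receptors bind. Both strands were searched, and the E-box was present in 8.05% and the core site in 13.4% of 14813 promoter windows. The second Plin2 window held neither. The core site was also present in the windows of G0s2 and Hsd17b13. A D-box (TTATGNAA, 2.34% of windows), a sterol element (TCACNCCAC, 1.07%) and 2 core sites in direct repeat with 1 base between them (0.027%) or 4 bases between them (0%) were not found in any window of these genes. These matches describe letters in a window and were not tested as sites.

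Plin5, a perilipin of tissues that burn fatty acids that links droplets to mitochondria, was scarce. The gene (ENSRNOG00000047860) lies at chr9:10956056-10961782 and had 7, 25 and 32 counts in t-PBS rats 1, 2 and 3 and 18, 20 and 9 counts in t-DHEA rats 1, 2 and 3. The groups overlapped and the spread within t-PBS was wider than the difference between the group means. Its log2 fold change was -0.36 (SE 0.54, 95% interval -1.59 to 0.87, unadjusted p 0.525, adjusted p 0.990, edgeR). The interval held a decrease as large as that of Plin2, no change and an increase, and these could not be separated at this depth. The fitted change was 0.078 with t-PBS rat 3 left out and -0.79 with t-PBS rat 1 left out.

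Plin4, a perilipin known from fat and muscle, lies at chr9:10963723-10971277 (ENSRNOG00000047046), 1940 bases from Plin5. It had 2 counts in t-PBS rat 1, 1 count in t-DHEA rat 2 and 0 in the other 4 livers, and all 6 livers were under the limit of 3 counts. It was not tested and no fold is given.

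Within each liver, the share of each perilipin was taken from FPKM, which divides counts by gene length. Plin2 made up 65.6% to 74.9% of the summed FPKM of the 5 perilipin genes in t-PBS and 56.8% to 72.9% in t-DHEA livers. Plin3, the perilipin that moves to droplets from the cytosol and is not 1 of the 10 genes, made up 24.8% to 33.4% and 26.2% to 42.9%. These shares overlapped between the groups. Plin3 itself was 37.0, 39.0 and 55.1 CPM in t-PBS rats 1, 2 and 3, and 48.7, 33.4 and 55.3 CPM in t-DHEA rats 1, 2 and 3, with a log2 fold change of 0.066 (95% interval -0.41 to 0.54). Plin1 was listed at 0 in every liver, so that the shares are those of the perilipins that were counted. The FPKM ratio of Plin5 to Plin2 did not separate the groups (difference of mean log2 ratios 0.29, exact two-sided permutation test, p = 0.9, where 0.1 is the smallest p that 3 against 3 livers allow), and the difference was -0.42 without t-PBS rat 1.

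The 2 CIDE genes, which promote the exchange and fusion of droplets, did not meet the criteria. Cideb, which in hepatocytes also serves the loading of lipoproteins with lipid, lies at chr15:34439876-34444244 (ENSRNOG00000020377). It was at 93.7, 112 and 86.4 CPM in t-PBS rats 1, 2 and 3 and at 81.7, 97.4 and 100.6 CPM in t-DHEA rats 1, 2 and 3, and the groups overlapped. Cideb differed by -0.063 on the log2 scale (95% interval -0.35 to 0.23, unadjusted p 0.630, adjusted p 0.990, edgeR), and by 0.052 with t-PBS rat 2 left out and 0.023 with t-DHEA rat 1 left out. Cidec, which drives the growth of large droplets, lies at chr4:145377431-145390497 (ENSRNOG00000009153). Cidec was at 54.6, 48.2 and 49.5 CPM in t-PBS rats 1, 2 and 3, and at 57.8, 59.4 and 55.3 CPM in t-DHEA rats 1, 2 and 3. Every t-DHEA liver was above every t-PBS liver, but the nearest values of both groups, 54.6 and 55.3 CPM, were less than 1 CPM apart. The log2 fold change was 0.18 (SE 0.09, 95% interval -0.03 to 0.39, unadjusted p 0.0848, adjusted p 0.974, edgeR). Cidec stayed short of the criteria in all 14 alternative fits, with the same direction in each. Cideb made up 77.0% to 82.8% of the summed FPKM of Cidea, Cideb and Cidec in t-PBS and 74.8% to 80.5% in t-DHEA livers.

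**Figure D2:**
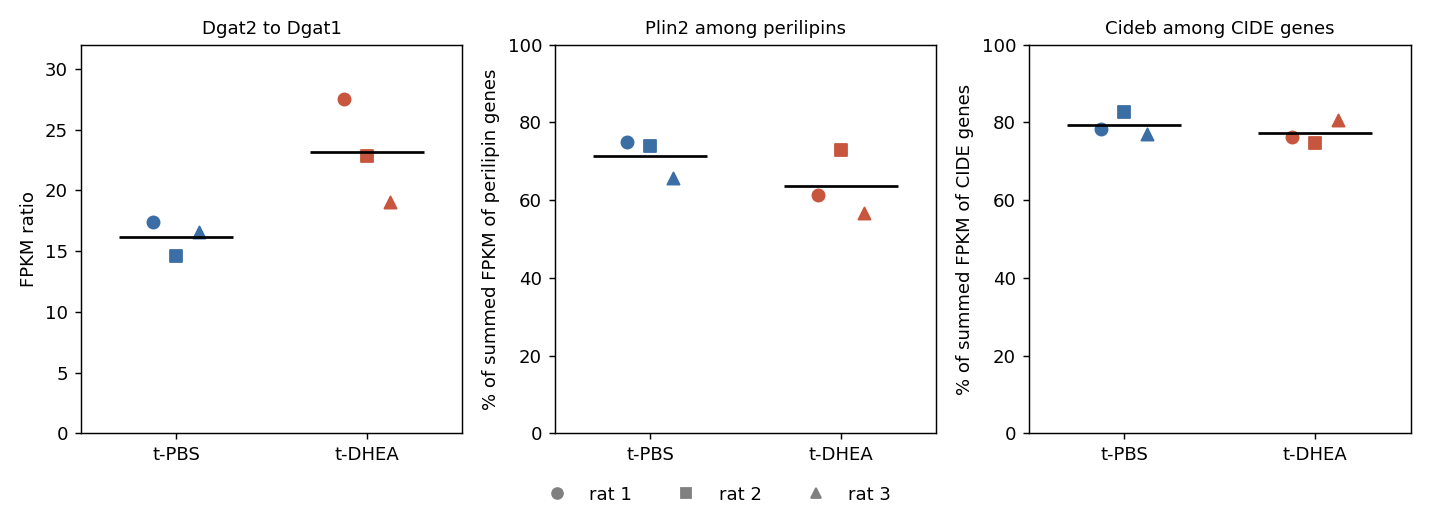
Within-liver comparisons from FPKM: the ratio of Dgat2 to Dgat1 (left), Plin2 as a percentage of the summed FPKM of Plin1 to Plin5 (middle) and Cideb as a percentage of the summed FPKM of Cidea, Cideb and Cidec (right); points are livers, with circles, squares and triangles for rats 1, 2 and 3, and lines are group means. The ratio runs from 14.6 to 17.4 in t-PBS and from 19.0 to 27.5 in t-DHEA livers without overlap, whereas both shares overlap between the groups.

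Hsd17b13, a liver enzyme on the droplet surface with activity on retinol (ENSRNOG00000002212), lies at chr14:7113544-7128218. It was at 226.4, 248.8 and 234.1 CPM in t-PBS rats 1, 2 and 3, and at 221.1, 193.5 and 277.0 CPM in t-DHEA rats 1, 2 and 3, so that t-DHEA livers held both the lowest and the highest value. Its difference was -0.036 on the log2 scale (95% interval -0.34 to 0.27, unadjusted p 0.794, adjusted p 0.990, edgeR), and it turned to 0.078 with t-DHEA rat 2 left out and 0.0046 with t-PBS rat 2 left out.

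G0s2, which binds and inhibits adipose triglyceride lipase, lies at chr13:112004140-112005052 (ENSRNOG00000006019). It was at 100.6, 74.9 and 74.0 CPM in t-PBS rats 1, 2 and 3 and at 87.5, 110.6 and 65.1 CPM in t-DHEA rats 1, 2 and 3. These ranges overlapped, and G0s2 differed by a log2 fold change of 0.077 (95% interval -0.36 to 0.52, unadjusted p 0.703, adjusted p 0.990, edgeR). It was -0.12 without t-DHEA rat 2. Pnpla2, the gene of that lipase, was listed at 0 in all 6 livers, which for so widely used a gene need not mean absence, so the inhibitor could not be set against its target.

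Fitm2, a protein of the endoplasmic reticulum needed for droplets to bud, lies at chr3:159856994-159863506 (ENSRNOG00000027434). It was at 51.5, 41.9 and 41.0 CPM in t-PBS rats 1, 2 and 3 and at 49.5, 57.8 and 48.6 CPM in t-DHEA rats 1, 2 and 3, and t-PBS rat 1 lay above 2 of the t-DHEA livers. The log2 fold change was 0.21 (95% interval -0.07 to 0.49, unadjusted p 0.117, adjusted p 0.986, edgeR). Without t-PBS rat 1 it was 0.33 with an unadjusted p of 0.0300, which met the criteria. Fitm1, the related gene known from muscle, was listed at 0 in every liver.

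Of the 2 acyltransferases, Dgat2 was higher in t-DHEA livers and Dgat1 did not meet the criteria. Dgat2, the enzyme most closely tied to newly made fatty acids, lies at chr1:164113459-164143818 (ENSRNOG00000016573). Its level was 880, 776 and 922 CPM in t-PBS rats 1, 2 and 3. In t-DHEA rats 1, 2 and 3 it was 1319, 1010 and 989 CPM. All 3 t-DHEA livers were above all 3 t-PBS livers, and t-DHEA rat 1 stood highest, while the other 2 lay nearer to the t-PBS range than to it. The means were 859.1 ± 75.1 and 1106 ± 184 CPM (SD, n = 3 each). The difference of 0.36 on the log2 scale (SE 0.14, 95% interval 0.05 to 0.68) corresponded to 28.7% more Dgat2 transcript in t-DHEA, with an unadjusted p of 0.0296 and an adjusted p of 0.957 (edgeR, quasi-likelihood). In 3 of the 6 fits without a liver Dgat2 no longer met the criteria, with a log2 difference of 0.22 when t-DHEA rat 1 was left out, 0.30 when t-PBS rat 2 was and 0.38 when t-PBS rat 1 was (unadjusted p 0.113, 0.0915 and 0.0519 in edgeR). By unadjusted p, Dgat2 ranked 374 of 12210.

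Dgat1, which acts in the endoplasmic reticulum and takes mostly preformed fatty acids, lies at chr7:117566368-117576737 (ENSRNOG00000028711). It was at 25.2, 26.4 and 27.8 CPM in t-PBS rats 1, 2 and 3, and at 23.8, 22.1 and 25.9 CPM in t-DHEA rats 1, 2 and 3. The ranges overlapped only through t-DHEA rat 3, which lay above t-PBS rat 1. The log2 fold change was -0.14 (95% interval -0.38 to 0.09, unadjusted p 0.201, adjusted p 0.986, edgeR). In t-PBS rats 1, 2 and 3 the FPKM ratio of Dgat2 to Dgat1 was 17.4, 14.6 and 16.5, and in t-DHEA rats 1, 2 and 3 it was 27.5, 22.8 and 19.0. The ratio was 1.42-fold higher in t-DHEA (0.50 on the log2 scale, exact two-sided permutation test, p = 0.1, the smallest that 3 against 3 livers allow), and the log2 difference ran from 0.37 to 0.64 when 1 liver was left out. Dgat2 accounted for 93.6% to 94.6% of the summed FPKM of both enzymes in t-PBS and for 95% to 96.5% in t-DHEA livers.

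**Figure D3:**
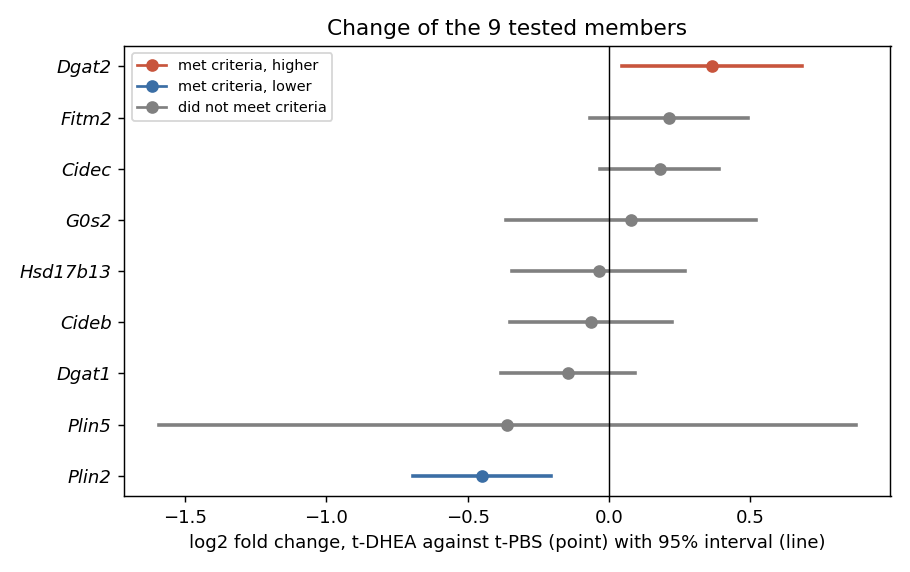
Log2 fold change of t-DHEA against t-PBS for the 9 genes tested, with points for the estimate and lines for the 95% interval of edgeR's quasi-likelihood test; red and blue mark genes that met the unadjusted criteria. Only the intervals of Plin2, from -0.69 to -0.21, and Dgat2, from 0.05 to 0.68, do not reach 0.

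Per length, the 10 genes spanned a wide range of levels. Over the 6 livers the mean FPKM was 279.5 for Dgat2, 180.2 for Hsd17b13, 117.1 for G0s2, 77.0 for Cideb and 73.4 for Plin2. It was 15.9 for Cidec, 14.4 for Dgat1, 10.8 for Fitm2, 0.727 for Plin5 and 0.0085 for Plin4. Dgat2 stood above Hsd17b13, G0s2 above Cideb, Plin2 above Cidec, Fitm2 above Plin5 and Plin5 above Plin4 in 6 of 6 livers. Hsd17b13 was above G0s2 and Dgat1 above Fitm2 in 5 of 6 livers, and the neighbours Cideb and Plin2, and Cidec and Dgat1, held their order in 4 of 6. In t-PBS rats 1, 2 and 3 the CPM of the 10 genes summed to 1591, 1491 and 1589, and in t-DHEA rats 1, 2 and 3 to 1953, 1684 and 1666. Without Dgat2 the sums were 667.8 to 715.4 CPM in t-PBS and 634.0 to 676.7 CPM in t-DHEA livers, which overlapped. Dgat2 alone made up 52.03% to 57.98% of the sum in t-PBS and 59.39% to 67.53% in t-DHEA livers.

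**Figure D4:**
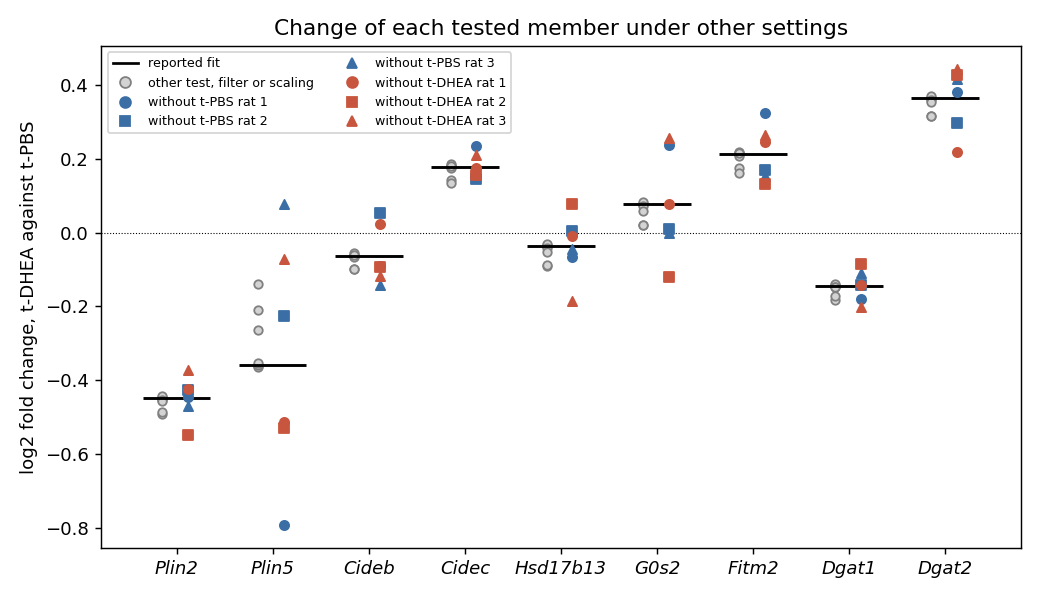
Log2 fold change of each tested gene in the reported fit (black line), under another test, filter or scaling (grey circles) and with 1 liver left out (coloured symbols, blue for a t-PBS and red for a t-DHEA rat). Plin2 stays between -0.55 and -0.37 and Dgat2 between 0.22 and 0.45, while Plin5, Cideb, Hsd17b13 and G0s2 have points on both sides of 0.

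Neighbouring genes of the pathway were read from 3 lists that leave out the 10 genes, and 0 of the 32 genes tested in them met the criteria in the reported fit, against 4.95% of all genes. Without t-PBS rat 1, 4 of them did (Gpam, Agpat4, Mettl7a and Pnpla3, all lower). Among the other glycerolipid synthesis enzymes, 3 of 11 genes tested were higher and 8 lower, with a median log2 fold change of -0.10. Those with the lowest p were Gpam (-0.36, adjusted p 0.969), which acylates glycerol phosphate at mitochondria in the first step of the route, and the acyltransferases Agpat4 (-0.73, adjusted p 0.974) and Agpat6 (0.21, adjusted p 0.986). Gpam was 226.4, 298.4 and 297.0 CPM in t-PBS rats 1, 2 and 3, and 263.1, 177.8 and 200.5 CPM in t-DHEA rats 1, 2 and 3, and thus overlapped between groups. Gpam, of the first step, and Dgat2, of the last, thus had values of opposite sign, and the difference between them was not tested.

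Among the other lipid droplet proteins, 7 of 13 genes tested were higher and 6 lower, with a median of 0.030. The lowest p-values were those of Mettl7a (-0.57, adjusted p 0.960), a droplet-associated methyltransferase-like protein, Acsl3 (-0.24, adjusted p 0.986), which activates fatty acids at growing droplets, and Hilpda (0.41, adjusted p 0.986), an inhibitor of adipose triglyceride lipase like G0s2. Among genes of triglyceride lipolysis, 5 of 8 tested were higher and 3 lower, with a median of 0.056. They were led by Lipe, hormone-sensitive lipase (0.33), Ces1d, a carboxylesterase (-0.40), and Pnpla3, a lipase-like droplet protein (-1.03, SE 0.79), each with an adjusted p of 0.986. Pnpla3 ran from 74.4 to 744.4 CPM in t-PBS and from 60.4 to 400.6 CPM in t-DHEA livers, a wider relative spread than that of Plin2 or Dgat2.

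**Figure D5:**
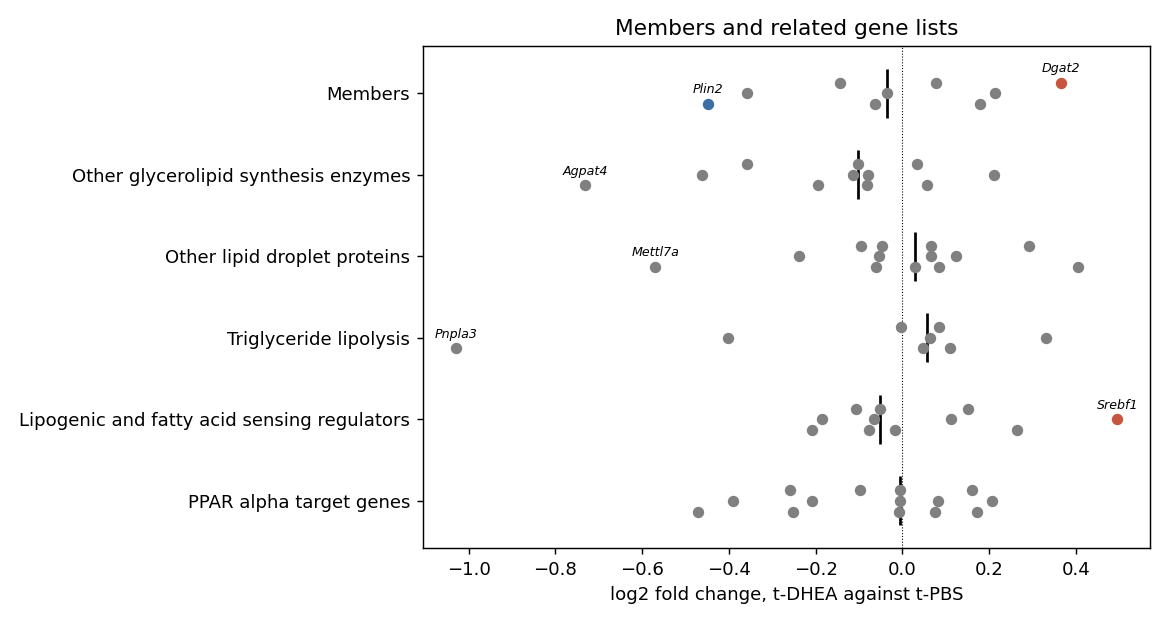
Log2 fold changes of the genes tested in the 10-gene set (top row) and in lists of related genes; each point is a gene, black bars are list medians, and red or blue points met the unadjusted criteria. Plin2, Dgat2 and Srebf1 are the coloured points, and the list medians lie between -0.10 and 0.06.

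Of 11 regulators of lipid synthesis and fatty acid sensing, 1 met the criteria (9.09%), against 4.95% of all genes tested. Srebf1, the transcription factor gene of hepatic fatty acid synthesis, was 232.0, 241.0 and 324.1 CPM in t-PBS rats 1, 2 and 3 and 490.2, 271.9 and 361.9 CPM in t-DHEA rats 1, 2 and 3. The groups overlapped, and t-DHEA rat 1 was the highest liver for Srebf1, as it was for Dgat2. Srebf1 differed by 0.50 on the log2 scale (SE 0.21, unadjusted p 0.0467, adjusted p 0.957, edgeR). Its call was kept without t-PBS rat 3 or without t-DHEA rat 2, was lost when any other liver was left out, and without t-DHEA rat 1 the value was 0.25. Srebf1 also fell short of the criteria with rat number as a block (0.47, unadjusted p 0.0568, edgeR) and in limma on FPKM (0.43 with either pseudocount, unadjusted p 0.0779 and 0.0786). Of 14 target genes of PPAR alpha, a receptor for fatty acids to which Plin2 is known to respond, 0 met the criteria, 5 were higher and 9 lower, with a median of -0.0066. The lowest p-values were those of Cpt1a (-0.25, adjusted p 0.970), which admits fatty acids to mitochondria, Pdk4 (-0.47, adjusted p 0.986), a brake on glucose oxidation, and Angptl4 (-0.26, adjusted p 0.986), an inhibitor of lipoprotein lipase. Like Plin2, these 3 genes had negative values, with Angptl4 at 162.2, 162.1 and 158.5 CPM in t-PBS rats 1, 2 and 3, and 96.1, 167.3 and 139.7 CPM in t-DHEA rats 1, 2 and 3. Unlike Plin2, all 3 overlapped between the groups, and Angptl4 was highest in a t-DHEA liver, that of rat 2. Fabp1, the most abundant of the 14 targets, was the only 1 whose groups did not overlap. It was higher in t-DHEA livers and did not meet the criteria (0.17, unadjusted p 0.200, edgeR).

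The summed levels of 3 marker lists, those of red blood cells, mesothelium and bile ducts, did not overlap between the groups. Plin2, Dgat2 and Cidec did not overlap either, nor did 10.1% of all genes tested. Over all genes tested, 4.95% met the criteria. Red blood cell markers summed to 176.2 to 274.4 CPM in t-PBS and 295.4 to 581.0 CPM in t-DHEA livers, and 3 of 4 genes tested met the criteria, all higher, with Hba1 the most abundant. Mesothelial markers, of the cells that cover the liver surface, summed to 24.6 to 27.1 CPM in t-PBS and 1.72 to 12.5 CPM in t-DHEA livers, and 4 of 5 genes tested were called lower, with Msln the most abundant. Bile duct markers summed to 17.8 to 22.3 and 8.52 to 15.4 CPM, with Krt19 and Krt7 called lower. Epcam, the most abundant, and Sox9 did not meet the criteria, and the groups overlapped for both. Epcam was at 10.4, 10.5 and 8.52 CPM in t-PBS rats 1, 2 and 3 and at 7.59, 6.50 and 10.6 CPM in t-DHEA rats 1, 2 and 3. Clock genes in phase with Dbp summed to 246.5 to 359.5 CPM in t-PBS and 296.5 to 485.7 CPM in t-DHEA livers, and 4 of 8 were called higher, while of 4 genes in phase with Arntl 1 was called lower (sums 111.5 to 152.7 and 85.97 to 128.3 CPM), and the sums of both clock lists overlapped between the groups. Summed hepatocyte, stellate (143.4 to 184.8 CPM) and Kupffer cell markers (377.8 to 580.7 CPM) overlapped between the groups, and none of their genes met the criteria. The part of these lists in the values of Plin2 and Dgat2 was not tested.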

How the data were processed

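Per the study's methods and processing notes, the authors mapped paired-end reads of liver RNA to Rnor_6.0 with HISAT2 2.0.4 and assembled them with StringTie 1.3.0. The raw counts per gene they deposited are not normalized. The FPKM values the authors deposited equal those counts divided by a fixed length per gene and by the library total, within a relative spread of 4.4e-05. Strandedness and annotation release were not given in the sources used here, so reads of overlapping or antisense genes cannot be separated.

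Groups and rat numbers came from the labels, and p-values measure the spread between these 6 livers. Per the study's methods, donor pellets were pooled before transfer and rats shared cages, which the labels do not name. The p-values therefore do not measure the spread between donors or cages. No library repeated another (chi-square per degree of freedom at least 16.2 between any pair). In R 4.3.3, edgeR 4.0.16 (TMM factors, filterByExpr, quasi-likelihood test, no block) was fitted to the counts of the 12210 genes that passed, and p-values were adjusted over them by Benjamini-Hochberg. The study's criteria were kept, although the study states that edgeR was run on FPKM. Standard errors came from the test statistic. FPKM was used for levels between genes. Alternatives were edgeR's likelihood-ratio test, RLE factors, no filter on low counts, a minimum of 10 counts per liver, a block for rat number, each liver omitted in turn, a fold-change above 1.5, DESeq2 1.42.0 and limma 3.58.1 on log2(FPKM + 0.1) or log2(FPKM + 1).

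The 10 genes and all lists were chosen with earlier results of these data known. Named genes were the 10, any gene of a related list that met the criteria or otherwise the 3 with the lowest p, and the 2 genes most alike in profile to each of the 3 members with the lowest p. Plin3, Fabp1, Sox9, Per2, Per3, Arntl and the genes listed at 0 were named after their values were seen. Of 129 list entries, 125 matched by name, 2 by a RefSeq synonym (Gpat3 as Agpat9, Gpat4 as Agpat6), and Acot1 and Hba-a2 did not match. G6pc matched 2 rows.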

Additional observations from a re-analysis of the deposited data

How the results depend on the processing

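Of the 125 values of the tested genes under an alternative, 114 kept their direction and their side of the criteria. Plin2 met the criteria under every alternative except the fold-change above 1.5, which left 0 of the 10 genes and 275 of all genes. Dgat2 lost its call in 3 fits without 1 liver, and Fitm2 gained one in 1 fit. Without 1 liver, 1 to 2 of the 10 genes, 0 to 4 genes of the related lists and 514 to 747 of all genes met the criteria, and 0 to 1 gene had an adjusted p below 0.05. That last count was 20 with DESeq2 and 28 with the likelihood-ratio test of edgeR. Related genes meeting the criteria, 0 in the reported fit, numbered 1 with the likelihood-ratio test, no filter or at least 10 counts (Mettl7a, lower), 2 with DESeq2 or limma at either pseudocount (Mettl7a and Gpam, both lower), and 2 with the replicate block (Mettl7a and Ces1d, both lower).

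Leaving out 1 liver turned the sign of 4 genes and gave log2 fold changes from -0.14 to 0.052 for Cideb (above 0 when t-PBS rat 2 or, at 0.023, t-DHEA rat 1 was omitted), -0.18 to 0.078 for Hsd17b13 (above 0 when t-DHEA rat 2 or, at 0.0046, t-PBS rat 2 was omitted), -0.12 to 0.26 for G0s2 (below 0 when t-DHEA rat 2 or, at -0.00030, t-PBS rat 3 was omitted) and -0.79 to 0.078 for Plin5 (above 0 when t-PBS rat 3 was omitted). It moved the log2 ratio difference of Plin5 to Plin2 between -0.42 and 0.76, and turned it only without t-PBS rat 1. The cause was not tested. Rats with the same number in both groups did not deviate together (correlations of -0.0592 to -0.0551). Deviations within a group of 3 sum to 0, so these correlations partly offset one another. Whether such rats shared a cage or a day was not tested. No rat correlated best with its own number, and the highest correlations, 0.106 to 0.116, joined rats of different numbers (t-PBS rats 1, 2 and 3 with t-DHEA rats 2, 3 and 1), which no label pairs. With this replicate block 539 genes, 2 of the 10 among them, met the criteria, 0 had an adjusted p below 0.05, and the paired sign-flip test gave p = 0.25 for Dgat2 to Dgat1 (the exact smallest of 3 pairs) and p = 1 for Plin5 to Plin2. Counts of 0 to 32 for Plin4 and Plin5 limit what can be said of both, and 3 livers per group limit all others.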

Other observations

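Within groups, the 9 tested genes deviated from their group means in both directions in each of t-DHEA rats 2 and 3. In t-DHEA rat 2, G0s2 (0.37 above its group mean on the log2 CPM scale), Plin5 (0.32), Plin2 (0.19), Fitm2 (0.16), Cideb (0.069) and Cidec (0.047) were above their group means, while Hsd17b13 (-0.24), Dgat2 (-0.12) and Dgat1 (-0.11) were below. In t-DHEA rat 3 the signs were opposite for Plin5 (-0.64), G0s2 (-0.40), Plin2 (-0.15), Fitm2 (-0.091), Cidec (-0.055), Hsd17b13 (0.28) and Dgat1 (0.12), whereas Dgat2 stayed below (-0.15) and Cideb above (0.12). Plin5 rests on few counts. Deviations of 3 rats from their own mean sum to 0 by construction, so opposite signs are partly built in. The same rat 2 had the lowest sum of clock genes in phase with Dbp among t-DHEA livers (296.5 CPM) and the highest sum of red blood cell markers (581.0 CPM).

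Profiles over the 6 livers were compared with 7145 genes of at least 10 CPM, as a description over livers that share their groups and depth. The genes named were picked for the highest r of so many, so that large values are partly built in. Plin2 was most like Lrp10 (Pearson r = 0.987) and Lnx2 (r = 0.984), and Lnx2 was itself lower in t-DHEA (log2 fold change -0.44, unadjusted p 0.00203, edgeR) while Lrp10 did not meet the criteria (-0.11). Dgat2 was most like Btrc (r = 0.998) and Dhx36 (r = 0.992), neither of which met the criteria (0.20 and 0.17 on the log2 scale). Cidec was most like Tmc3 (r = 0.987) and Dffa (r = 0.983).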
